A study of Mus musculus with 12 samples.

Results

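The set described here holds 48 mouse genes of DNA replication and S phase, taken from a fixed list of symbols matched to the Ensembl gene IDs of the count table. All 48 had at least 10 counts in at least 2 libraries, so all were among the 16281 genes tested of 54232 in the table. They were grouped into 8 roles: origin licensing (10 genes), helicase activation (6), polymerases, primase and single-strand binding (9), clamp, clamp loader and Okazaki fragment joining (7), nucleotide supply (5), chromatin assembly and histone supply (4), G1/S control (4) and replication-linked repair (3). None of them was at 0 in any library.

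Before a cell copies its DNA, the origin recognition complex, Cdc6 and Cdt1 load the Mcm helicase onto origins, and Cdc45, the GINS proteins and Mcm10 then switch the helicase on. DNA polymerases copy the strands on the Pcna clamp while ribonucleotide reductase, thymidylate synthase and the kinases of nucleotide salvage supply the building blocks. Many of these genes are transcribed at the passage from G1 to S phase under E2F factors, and cultured bone marrow-derived macrophages (BMDMs) divide when given M-CSF, the ligand of Csf1r.

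BMDMs from C57BL/6 wild-type mice were cultured for 5 days and then kept for 24 h in 1 of 6 conditions, with 2 poly(A) RNA libraries each. NS received neither agent. NB9464 TCM and NBT3L TCM received tumor-conditioned medium (TCM) from a murine neuroblastoma line with MYCN amplification (NB9464) or from a line without it (NBT3L), and R788, a Syk inhibitor, was given at 500 nM alone (R788) or in either TCM (NB9464 TCM + R788, NBT3L TCM + R788). Per the methods, BMDMs were grown from marrow in RPMI with serum and M-CSF, and the NB9464 medium was collected in DMEM without serum. The medium of the cells without TCM during the 24 h, the vehicle and the preparation of NBT3L TCM are not given in the sources used here, so what the tumor cells released and the medium it was collected in cannot be told apart. Whether the 2 libraries of a group came from separate mice or cultures is also not given, and p-values measure only the spread between libraries.

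Total counts ran from 44977847 to 56449685 per library, and counts were normalized with the size factors of DESeq2. A gene was called at a Benjamini-Hochberg adjusted p under 0.05 in a single DESeq2 fit of 6 group means, and changes are log2 fold changes ± SE. The 7 macrophage markers were above 0 in all 12 libraries, but they did not stay level. Adgre1 changed by 1.59 in NB9464 TCM and 1.98 in NBT3L TCM, Cd68 by -0.65 in NB9464 TCM, and Fcgr1 by -2.23 with R788 alone. The 8 neuroblastoma markers summed to 0.0 to 1.8 normalized counts without TCM, with 7 or 8 of them at 0, and to 25.8 to 71.1 with TCM, with 3 to 6 at 0. Granulocyte and precursor markers (6 genes) summed to 2048 to 2082 without TCM and 830 to 1259 with TCM. Most of this was Ngp, at 1691 and 1687 in NS, 660 and 725 in NB9464 TCM and 556 and 504 in NBT3L TCM. Elane and Mpo were also lower in both TCMs than in NS. Prtn3 was higher than in NS (11.3 and 17.1) in NB9464 TCM (26.8 and 18.6) and NBT3L TCM (19.8 and 30.3). Camp, at 223.5 and 228.5 in NS, was 187.5 and 177.4 in NB9464 TCM but 360.2 and 288.9 in NBT3L TCM. Progenitor markers (3 genes) summed to 617 to 867 without TCM and 75.3 to 182 with TCM. Most of this was Cd34. It went from 639 and 803 in NS and 862 and 617 with R788 to 64.1 and 71.5 in NB9464 TCM and 55.7 and 62.8 in NBT3L TCM. Kit and Flt3 had few counts and showed no such fall in NBT3L TCM. Kit was at 9.4 and 15.2 in NS, 0.0 and 11.2 in NB9464 TCM and 9.9 and 23.8 in NBT3L TCM. Flt3 was at 5.6 and 3.8, 15.3 and 0.0, and 9.9 and 2.2 in the same order. Fibroblast markers (5 genes) summed to 1191 to 2010 without R788 and 1945 to 3372 with it, most of it Col1a1, Col1a2 and Col3a1. Dcn went the other way, from 53.6 and 55.7 in NB9464 TCM to 13.9 and 37.8 with R788 added. In NBT3L TCM it went from 91.6 and 72.5 to 15.9 and 46.2, and without TCM from 49.8 and 9.5 to 21.8 and 3.2. Lymphocyte markers (5 genes) summed to 30.0 or less, with 2 to 4 at 0. The part of these other cells in the results on replication genes was not tested, and in bulk RNA fewer dividing cells and less RNA of these genes per cell cannot be told apart.

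Because E2F factors bind upstream of many replication genes, the 250 bases before the annotated start were searched in the RefSeq promoter windows (GRCm38.p6), on both strands. Of the 48 genes, 39 had a window. At least 1 of the E2F motif forms TTTCCCGC, TTTGGCGC, TTTCGCGC and TTTGCCGC was found for 9 of 39 genes (23.1%), against 2.16% of 27025 genes with a window and 3.76% of the 11263 genes tested with a window. By role, 5 of 9 licensing genes (55.6%) held such a form, and none of the 5 nucleotide supply genes did. The CCAAT box was found for 24 of 39 genes (61.5%) against 37.5% of all genes with a window and 40% of those tested, and the cell cycle homology region TTTGAA for 5 (12.8%) against 18.3% and 13.1%. The same searches in 19 mitosis genes found an E2F form for 5.26%, CCAAT for 84.2% and TTTGAA for 31.6%. Some forms overlap each other, and a match is a run of letters, not a measured binding site.

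The 9 genes with an E2F form were Cdc6, Mcm5, Mcm6, Mcm7, Orc1, Gins3, Pola1, Rfc3 and Uhrf1. Stretches of 100 bases are shown for the 4 whose stretch held no annotated exon, as RefSeq sequence read 5′ to 3′ on the strand of the gene, with the E2F forms in capitals. They lie at chr1:128359731-128359830 on the minus strand (Mcm6), chr8:75109312-75109411 on the plus strand (Mcm5), chrX:93632240-93632339 on the minus strand (Pola1) and chr17:56304082-56304181 on the plus strand (Uhrf1). In GENCODE M21 the stretches of Mcm6, Mcm5 and Pola1 lie outside any gene, and that of Uhrf1 in an intron of a longer Uhrf1 transcript.
Mcm6: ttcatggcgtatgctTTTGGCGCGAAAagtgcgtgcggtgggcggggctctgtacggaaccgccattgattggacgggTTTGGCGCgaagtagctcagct
Mcm5: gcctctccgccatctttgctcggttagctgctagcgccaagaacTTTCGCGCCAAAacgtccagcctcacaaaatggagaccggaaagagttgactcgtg
Pola1: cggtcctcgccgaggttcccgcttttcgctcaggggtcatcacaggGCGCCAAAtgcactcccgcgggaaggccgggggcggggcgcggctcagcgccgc
Uhrf1: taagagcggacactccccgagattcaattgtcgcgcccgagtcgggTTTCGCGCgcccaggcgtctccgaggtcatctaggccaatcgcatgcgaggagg

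Counted from the annotated start, the first bases of these forms lie at -110, -106 and -47 for Mcm6, at -153 and -149 for Mcm5, at -138 for Pola1 and at -185 for Uhrf1, and the neighbouring pairs of Mcm6 and Mcm5 overlap. The 9 genes with an E2F form had a median log2 change of -0.78 with R788 alone, and the 30 with a window but no form had -0.67. In NB9464 TCM both medians were -0.83, and in NBT3L TCM they were -0.67 and -0.74. For R788 given in NB9464 TCM the medians were -0.55 with a form and -0.42 without, in NBT3L TCM -0.46 and -0.27, and averaged over the 3 media -0.66 and -0.46. Of the 9 genes with a form, 5 were licensing genes. The 10 licensing genes had medians of -0.66 for R788 in NB9464 TCM and -0.43 in NBT3L TCM, and form and role were not separated. These medians are given as a description, with no test.

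Conditioned medium from either line lowered most replication genes. In NB9464 TCM, 43 of 48 fell and 1 rose (34.1% of all genes were called, 16.9% lower and 17.2% higher), with a median log2 change of -0.84 against 0.02 for all genes. In NBT3L TCM the counts were again 43 lower and 1 higher (35.3% of all genes called, 17.3% lower and 18% higher), with a median of -0.72 against 0.00. Both TCM libraries lay below both NS libraries for 47 genes in NB9464 TCM (31.7% of all genes, and 32.8% above) and 45 in NBT3L TCM (33.9%, and 32.9% above). The same 43 genes fell in both comparisons, which share the NS libraries, and this overlap was not counted over all genes. The 5 that did not fall in either were Orc1, Cdc6, Pola2, Fen1 and E2f1, of which E2f1 was the 1 that rose in both, though not with total count scaling.

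R788 also lowered them, most without TCM. Given alone it lowered 44 of 48 genes and raised 0 (26.6% of all genes called, 15% lower and 11.6% higher), with a median log2 change of -0.75 against 0.00. At an unadjusted p under 0.05, DESeq2 and edgeR each found 47 lower and 0 higher. The share of all genes at an unadjusted p was not counted, here or below. In NB9464 TCM, R788 lowered 31 (14.5% of all genes called, 8.7% lower and 5.79% higher), with a median of -0.44. In NBT3L TCM it lowered 23 (12.6% called, 7.24% lower and 5.33% higher), with a median of -0.31, and 0 rose in either TCM with DESeq2 or edgeR, adjusted or not. Both R788 libraries lay below both without R788 for 47 genes without TCM (29.4% of all genes), 46 in NB9464 TCM (26.4%) and 42 in NBT3L TCM (27.4%). Averaged over the 3 media, 45 fell (29.6% called, 16.2% lower).

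R788 replicate 8 had the highest total count (56449685) and the fewest genes with a count, 16149 against 17275 to 18343 in the other 11 libraries. With R788 alone, 44 genes were called without that library and 42 without R788 replicate 7. Most calls did not hang on 1 library. Of 44 calls each, 41 in NB9464 TCM, 41 in NBT3L TCM and 40 with R788 alone held when any 1 library was left out. The exceptions were Ccne1, E2f1 and Rpa2 in NB9464 TCM, Ccne1, Cdt1 and Orc6 in NBT3L TCM, and Fanci, Orc1, Pola2 and Rpa3 with R788. With R788 in NB9464 TCM, 24 of 31 calls held, and those of Ccne1, Gins1, Pola1, Prim1, Rpa1, Rpa2 and Tk1 did not. In NBT3L TCM 13 of 23 held. There the calls of Cdc45, Chaf1b, Lig1 and Orc1 were lost without any 1 of the 4 libraries, those of Brca1 and Chaf1a without any of 3 of them, those of Pola1 and Tyms without NBT3L TCM replicate 6, that of Mcm2 without NBT3L TCM replicate 5, and that of Mcm7 without NBT3L TCM + R788 replicate 11. Without NBT3L TCM replicate 6, the count in NBT3L TCM dropped from 23 to 15.

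**Figure D1:**
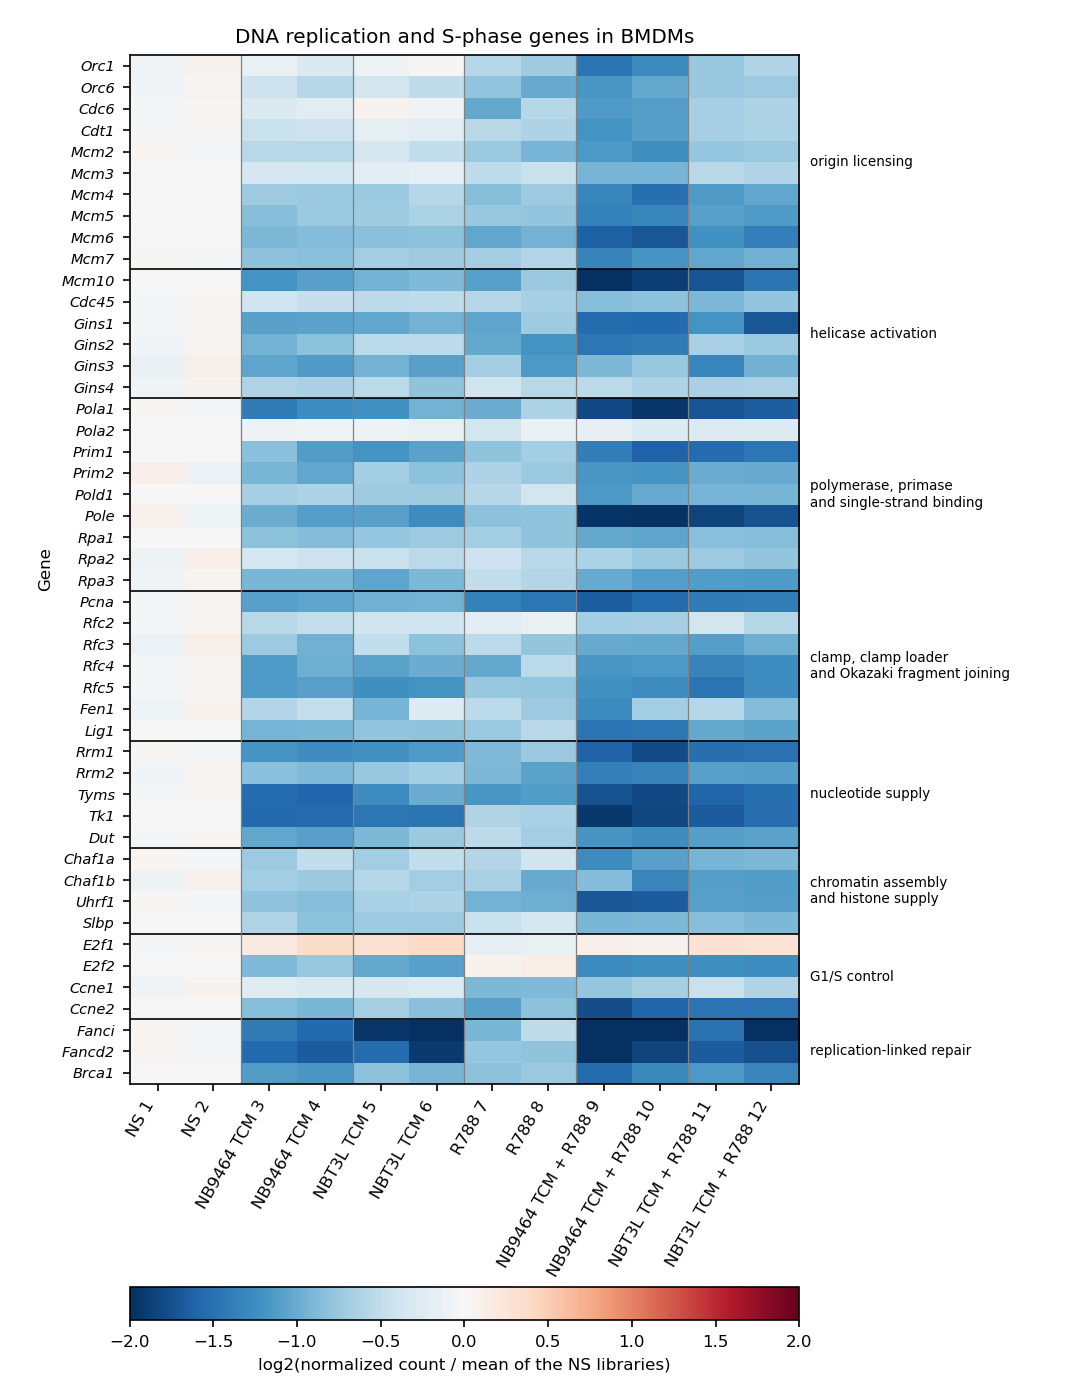
Normalized counts of the 48 genes in each of the 12 libraries (columns, by group and library number), as the log2 ratio to the mean of the NS libraries (color, blue lower and red higher); horizontal lines part the roles. Nearly all genes are blue outside NS, E2f1 is red in both TCMs, and E2f2 stays near 0 with R788 alone.

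Taking both agents together, the lowest group mean belonged to NB9464 TCM + R788 for 36 of 48 genes (16.3% of all genes), and the highest to NS for 46 (20.3%). The median level over the 48 genes was 55.7% of NS in NB9464 TCM, 60.5% in NBT3L TCM, 59.5% with R788, 43% in NB9464 TCM + R788 and 47.3% in NBT3L TCM + R788. Their summed share of each library was also highest in NS, with 4888 and 4913 CPM (counts scaled to the library total) in NS, 2551 and 2510 in NB9464 TCM, 2505 and 2527 in NBT3L TCM, 2975 and 3050 with R788, 1779 and 1806 in NB9464 TCM + R788, and 2033 and 2016 in NBT3L TCM + R788. These 12 sums form 6 separate pairs except that both TCMs without R788 overlap. In all, 18 genes fell in both TCMs and with R788 in every medium, a number that was not counted over all genes.

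**Figure D2:**
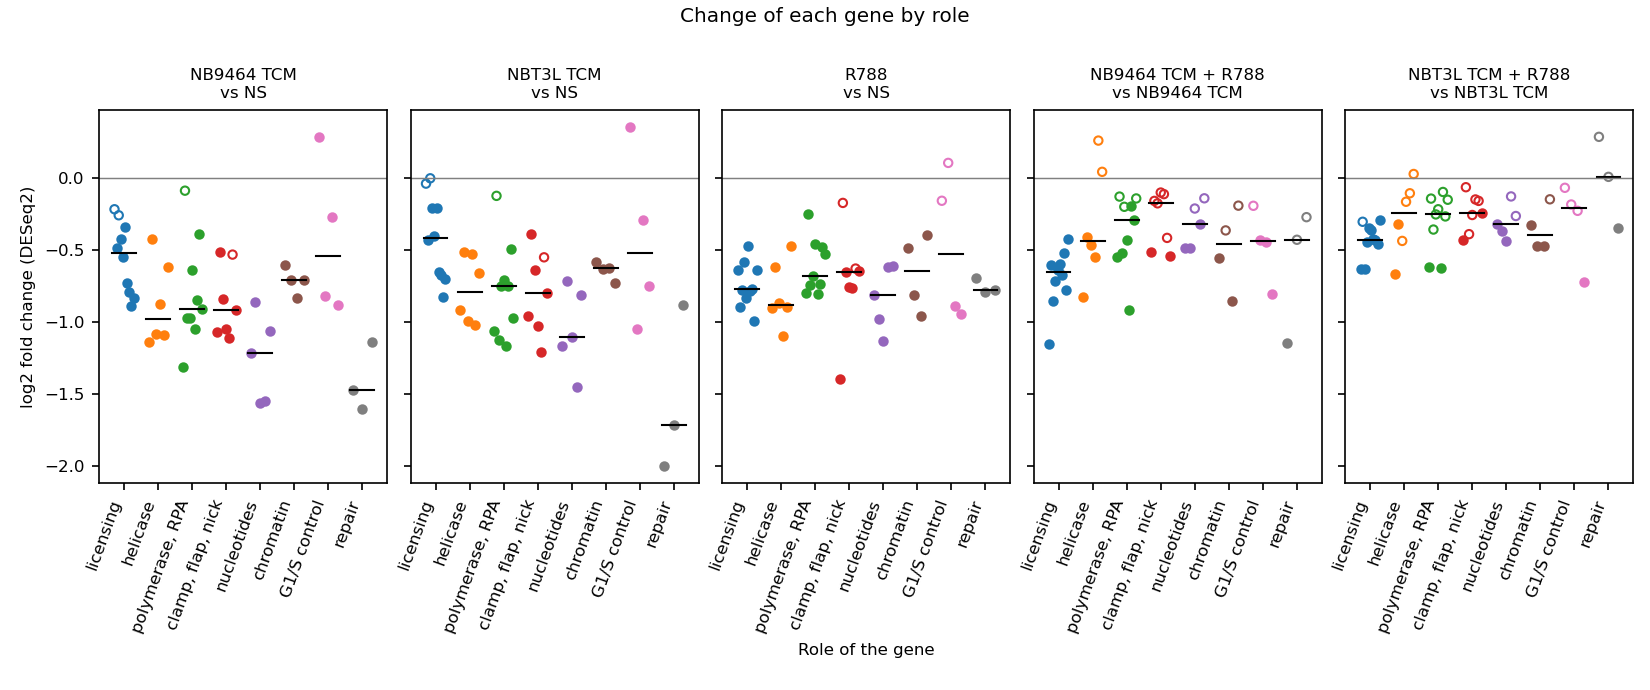
Log2 fold change (DESeq2) of each of the 48 genes in 5 comparisons, by role; filled points passed the test, open points did not, and black bars are medians over the genes of a role. Licensing genes sit higher than most roles in both TCMs, and all 10 are filled with R788 alone and in NB9464 TCM.

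Origin licensing genes fell in every medium with R788, and by less in TCM than most other roles. With R788, 10 of 10 fell without TCM, 10 when it was given in NB9464 TCM and 9 when in NBT3L TCM, while 8 fell in either TCM, with role medians of -0.52 and -0.42. For Mcm2, the NS libraries held 6752 and 6401 normalized counts, NB9464 TCM 4479 and 4487, NBT3L TCM 5237 and 4677, R788 3919 and 3444, NB9464 TCM + R788 2955 and 2798, and NBT3L TCM + R788 3855 and 3924. Normalized counts of Mcm5 were 10354 and 10444 in NS, 6131 and 6048 with R788, 5770 and 6208 in NB9464 TCM, 4092 and 4225 in NB9464 TCM + R788, 6365 and 6680 in NBT3L TCM, and 4912 and 4755 in NBT3L TCM + R788. Against 16057 and 16061 normalized counts in NS, Mcm6 had 8591 and 8768 in NB9464 TCM, 8982 and 9075 in NBT3L TCM and 7810 and 8301 with R788, and in the combined groups 5176 and 4928 in NB9464 TCM + R788 and 6929 and 6222 in NBT3L TCM + R788. These 3 subunits of the Mcm helicase were highest in NS and lowest in NB9464 TCM + R788, with no overlap between either TCM and NS. Mcm6 changed by -0.89 ± 0.07 (adjusted p = 1.15e-40) in NB9464 TCM, -0.83 ± 0.07 (adjusted p = 1.4e-35) in NBT3L TCM and -0.99 ± 0.07 (adjusted p = 2.17e-50) with R788. Mcm5 changed by -0.80, -0.67 and -0.77 in the same order, and Mcm2 by -0.55, -0.41 and -0.84. The other Mcm subunits, Mcm3, Mcm4 and Mcm7, fell in all 5 comparisons, by between -0.21 (Mcm3, NBT3L TCM) and -0.83 (Mcm7, NB9464 TCM).

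Of the genes that load the helicase, Cdt1 and Orc6 fell in both TCMs, and Orc1 and Cdc6 did not pass the test in either. Orc1 had 538 and 594 normalized counts in NS, 509.8 and 463 in NB9464 TCM, 525 and 575 in NBT3L TCM, 379.9 and 346 with R788, 204 and 233 in NB9464 TCM + R788, and 336 and 372 in NBT3L TCM + R788. For Cdc6, the NS libraries held 1744 and 1809 normalized counts, NB9464 TCM 1447 and 1519, NBT3L TCM 1859 and 1686, R788 875 and 1197, NB9464 TCM + R788 809 and 826, and NBT3L TCM + R788 1124 and 1162. Normalized counts of Cdt1 were 6492 and 6672 in NS, 4490 and 4283 with R788, 4815 and 4962 in NB9464 TCM, 2869 and 3076 in NB9464 TCM + R788, 5722 and 5666 in NBT3L TCM, and 4135 and 4222 in NBT3L TCM + R788. Orc1, the largest subunit of the origin recognition complex, and Cdc6 overlapped NS in NBT3L TCM and lay below both groups without R788 in either TCM with R788. Orc1 changed by -0.22 ± 0.19 (adjusted p = 0.426) in NB9464 TCM and by -0.04 ± 0.19 (adjusted p = 0.909) in NBT3L TCM, the latter with a 95% interval of -0.41 to 0.33. Those of Cdc6 were -0.26 ± 0.14 (adjusted p = 0.15) and 0.00 ± 0.14 (adjusted p = 0.991), the latter with a 95% interval of -0.28 to 0.27. Neither passed the test in TCM, although Cdc6 in NB9464 TCM did with total count scaling (-0.39, adjusted p = 0.0188). With R788 in NB9464 TCM, Orc1 changed by -1.16 ± 0.20 (adjusted p = 1.61e-07), the largest fall among the 48 there, and Cdc6 by -0.86 ± 0.14 (adjusted p = 6.7e-08). The fall of Orc1 with R788 alone, -0.64 ± 0.19 (adjusted p = 0.00412), was lost without NS replicate 2 (adjusted p = 0.0998). Cdt1, the other loading factor, changed by -0.43 and -0.21 in the TCMs and by -0.59, -0.72 and -0.45 with R788. It passed the test each time, but in NBT3L TCM not without NS replicate 2 or either NBT3L TCM library. Orc6 fell in both TCMs (-0.49 and -0.43, the latter not without NBT3L TCM replicate 6 or NS replicate 2) and most with R788 alone (-0.90).

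Helicase activation genes fell 6 of 6 in both TCMs and with R788 alone, with role medians of -0.98, -0.79 and -0.88. Against 2235 and 2356 normalized counts in NS, Cdc45 had 1741 and 1672 in NB9464 TCM, 1599 and 1608 in NBT3L TCM and 1540 and 1446 with R788, and in the combined groups 1272 and 1294 in NB9464 TCM + R788 and 1231 and 1332 in NBT3L TCM + R788. Gins2 had 2166 and 2310 normalized counts in NS, 1168 and 1270 in NB9464 TCM, 1545 and 1558 in NBT3L TCM, 1104 and 981 with R788, 825 and 841 in NB9464 TCM + R788, and 1432 and 1333 in NBT3L TCM + R788. For Mcm10, the NS libraries held 3269 and 3203 normalized counts, NB9464 TCM 1414 and 1524, NBT3L TCM 1675 and 1754, R788 1518 and 1934, NB9464 TCM + R788 784 and 873, and NBT3L TCM + R788 983 and 1176. Mcm10 dropped furthest of these under both agents together, and Gins2 in NBT3L TCM + R788 stayed near its level in NBT3L TCM. Mcm10 changed by -1.14 ± 0.13 (adjusted p = 1.21e-16) in NB9464 TCM, -0.91 ± 0.13 (adjusted p = 1.34e-10) with R788 and -0.67 ± 0.14 (adjusted p = 1.91e-05) with R788 in NBT3L TCM, the second largest fall there. Gins2, a GINS subunit, changed by -1.10 ± 0.11 (adjusted p = 2.82e-20) with R788 alone and by -0.17 ± 0.12 (adjusted p = 0.4) with R788 in NBT3L TCM. Normalized counts of Gins3 were 799 and 957 in NS, 547 and 397 with R788, 424 and 401 in NB9464 TCM, 469.5 and 518 in NB9464 TCM + R788, 454 and 412 in NBT3L TCM, and 354 and 449 in NBT3L TCM + R788. Gins3, another GINS subunit, lay below NS in every other group, and R788 in NB9464 TCM changed it by 0.26 ± 0.21 (adjusted p = 0.472), the 1 gene whose libraries there lay above both without R788. Gins1 changed by -1.08, -0.99 and -0.87 in NB9464 TCM, NBT3L TCM and R788, and Gins4 by -0.62, -0.67 and -0.48.

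Polymerase, primase and single-strand binding genes fell 8 of 9 in either TCM and 9 of 9 with R788 alone, but 6 with R788 in NB9464 TCM and 2 in NBT3L TCM. Against 2768 and 2707 normalized counts in NS, Pola1 had 1042 and 1156 in NB9464 TCM, 1188 and 1423 in NBT3L TCM and 1382 and 1765 with R788, and in the combined groups 787.8 and 712 in NB9464 TCM + R788 and 830.3 and 871 in NBT3L TCM + R788. Pole had 2904 and 2579 normalized counts in NS, 1374 and 1272 in NB9464 TCM, 1285 and 1149 in NBT3L TCM, 1556 and 1570 with R788, 705 and 694 in NB9464 TCM + R788, and 761 and 817 in NBT3L TCM + R788. For Rpa2, the NS libraries held 2741 and 3165 normalized counts, NB9464 TCM 2315 and 2197, NBT3L TCM 2171 and 2022, R788 2227 and 2010, NB9464 TCM + R788 1911 and 1765, and NBT3L TCM + R788 1779 and 1701. The catalytic subunits Pola1 and Pole were reduced further by R788 in either TCM, and Rpa2, a subunit of the single-strand binding complex, moved less. In NB9464 TCM Pola1 changed by -1.32 ± 0.14 (adjusted p = 1.75e-19) and in NBT3L TCM by -1.07 ± 0.14 (adjusted p = 4.67e-13), and Pole by -1.05 and -1.17. With R788 in NB9464 TCM, Pole changed by -0.92 ± 0.12 (adjusted p = 2.43e-12). Rpa2 changed by -0.39, -0.49 and -0.48 in the 3 comparisons with NS, the first a call lost without NS replicate 2. Pola2, the second subunit of polymerase alpha, was the exception in TCM, at -0.09 ± 0.10 (adjusted p = 0.546) and -0.13 ± 0.10 (adjusted p = 0.349) with 95% intervals of -0.28 to 0.10 and -0.32 to 0.06, although the latter passed the test with total count scaling (-0.36, adjusted p = 0.000921). The remaining genes of the role (Prim1, Prim2, Pold1, Rpa1 and Rpa3) fell in both TCMs by between -0.64 (Pold1) and -1.13 (Prim1).

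Pcna, the sliding clamp, was the most abundant of the 48 per length in NS, where Mcm6 and Rrm2 came next at 219 and 201 TPM (counts divided by gene length and scaled to the library, means of 2 libraries with SDs of 4.8 and 7.0). Normalized counts of Pcna were 29326 and 30054 in NS, 11690 and 10866 with R788, 13999 and 14218 in NB9464 TCM, 9516 and 10229 in NB9464 TCM + R788, 15196 and 15348 in NBT3L TCM, and 11234 and 11378 in NBT3L TCM + R788. With R788 alone it fell below its level in either TCM, by -1.40 ± 0.06 (adjusted p = 6.57e-134), the largest fall of the 48 in that comparison. It changed by -1.07 ± 0.06 (adjusted p = 4.49e-80) in NB9464 TCM and by -0.96 ± 0.06 (adjusted p = 6.63e-64) in NBT3L TCM, and R788 changed it by a further -0.52 and -0.43 there. Against 1075 and 1145 normalized counts in NS, Rfc4 had 508 and 562 in NB9464 TCM, 529.7 and 558 in NBT3L TCM and 549 and 765 with R788, and in the combined groups 494 and 502 in NB9464 TCM + R788 and 439 and 470.3 in NBT3L TCM + R788. Fen1 had 320.3 and 356 normalized counts in NS, 225 and 242 in NB9464 TCM, 178 and 282 in NBT3L TCM, 233 and 204 with R788, 140.2 and 209.9 in NB9464 TCM + R788, and 228 and 185 in NBT3L TCM + R788. For Lig1, the NS libraries held 7125 and 7028 normalized counts, NB9464 TCM 3722 and 3775, NBT3L TCM 4079 and 4048, R788 4224 and 4812, NB9464 TCM + R788 2533 and 2604, and NBT3L TCM + R788 3491 and 3370. Rfc4, a clamp loader subunit, and Lig1, which seals nicks, were lower than NS throughout. So was the flap nuclease Fen1, the least counted of these, whose libraries of 1 group lay as far apart as 178 and 282 in NBT3L TCM. The exons of Fen1 (2422 bases) are overlapped on the opposite strand by Gm10143 and Tmem258, over 2039 bases for both together. How reads there were assigned is not known, so the level of Fen1 and its lack of a call are uncertain. Lig1 changed by -0.92, -0.80 and -0.65, and Rfc4 by -1.05, -1.03 and -0.76. Fen1 changed by -0.53 ± 0.30 (adjusted p = 0.172) in NB9464 TCM, -0.55 ± 0.30 (adjusted p = 0.151) in NBT3L TCM and -0.63 ± 0.30 (adjusted p = 0.102) with R788, and passed the test in none of the 5 comparisons, although in NBT3L TCM it did with total count scaling (adjusted p = 0.0241) and without NBT3L TCM replicate 6 (adjusted p = 0.0405). Of the other loader subunits, Rfc3 and Rfc5 fell in both TCMs and with R788 alone, and Rfc2 in both TCMs but not with R788 (-0.17 ± 0.09, adjusted p = 0.126).

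Nucleotide supply genes fell 5 of 5 in both TCMs and with R788 alone, with role medians of -1.22, -1.11 and -0.81. Normalized counts of Rrm1 were 16645 and 16179 in NS, 8900 and 9777 with R788, 7212 and 6930 in NB9464 TCM, 5340 and 4764 in NB9464 TCM + R788, 7086 and 7505 in NBT3L TCM, and 5800 and 5863 in NBT3L TCM + R788. Against 8400 and 9102 normalized counts in NS, Rrm2 had 4886 and 4751 in NB9464 TCM, 5149 and 5472 in NBT3L TCM and 4696 and 4154 with R788, and in the combined groups 3390 and 3468 in NB9464 TCM + R788 and 4124 and 4090 in NBT3L TCM + R788. Both ribonucleotide reductase subunits were at their lowest in NB9464 TCM + R788. Rrm1 changed by -1.22 ± 0.07 (adjusted p = 5.98e-63) in NB9464 TCM and by -0.81 ± 0.07 (adjusted p = 2.41e-28) with R788, and Rrm2 by -0.86 ± 0.08 (adjusted p = 4.92e-27) and -0.98 ± 0.08 (adjusted p = 1.4e-34). Tyms had 4951 and 5148 normalized counts in NS, 1735 and 1685 in NB9464 TCM, 2142 and 2535 in NBT3L TCM, 2265 and 2329 with R788, 1503 and 1446 in NB9464 TCM + R788, and 1671 and 1770 in NBT3L TCM + R788. For Tk1, the NS libraries held 7750 and 7883 normalized counts, NB9464 TCM 2657 and 2677, NBT3L TCM 2861 and 2835, R788 5173 and 4995, NB9464 TCM + R788 2045 and 2224, and NBT3L TCM + R788 2473 and 2732. Normalized counts of Dut were 2134 and 2223 in NS, 1512 and 1342 with R788, 1057 and 1024 in NB9464 TCM, 965 and 919.7 in NB9464 TCM + R788, 1173 and 1304 in NBT3L TCM, and 1020 and 1041 in NBT3L TCM + R788. Tyms, which makes thymidylate, Tk1, which salvages thymidine, and Dut, which clears dUTP, were all lower in NB9464 TCM than with R788 alone. Tyms changed by -1.56 ± 0.10 (adjusted p = 1.71e-55) in NB9464 TCM, the second largest fall of the 48, and by -1.14 ± 0.10 (adjusted p = 9.28e-30) with R788 alone, the second largest there. Tk1 changed by -1.55 ± 0.08 (adjusted p = 1.2e-85) and -1.46 ± 0.08 (adjusted p = 5.6e-75) in the TCMs against -0.62 ± 0.08 (adjusted p = 2.16e-14) with R788, and Dut by -1.07, -0.81 and -0.61.

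Chromatin genes fell 4 of 4 in both TCMs and with R788. Against 1992 and 2263 normalized counts in NS, Chaf1b had 1330 and 1267 in NB9464 TCM, 1428 and 1318 in NBT3L TCM and 1363 and 1059 with R788, and in the combined groups 1164 and 849.7 in NB9464 TCM + R788 and 990.4 and 986 in NBT3L TCM + R788. Uhrf1 had 10710 and 10329 normalized counts in NS, 6003 and 5807 in NB9464 TCM, 6729 and 6882 in NBT3L TCM, 5443 and 5372 with R788, 3199 and 3311 in NB9464 TCM + R788, and 4946 and 4878 in NBT3L TCM + R788. For Slbp, the NS libraries held 3508 and 3499 normalized counts, NB9464 TCM 2301 and 1982, NBT3L TCM 2108 and 2122, R788 2564 and 2750, NB9464 TCM + R788 1859 and 1885, and NBT3L TCM + R788 1944 and 1870. Uhrf1, which directs DNA methylation maintenance, showed no overlap between any group and NS and was lowest in NB9464 TCM + R788. It changed by -0.83 ± 0.06 (adjusted p = 7.32e-42) in NB9464 TCM, by -0.63 ± 0.06 (adjusted p = 4.62e-24) in NBT3L TCM and by -0.96 ± 0.06 (adjusted p = 8.18e-55) with R788. Chaf1b, a subunit of the histone chaperone CAF-1, changed by -0.71, -0.63 and -0.81, and Slbp, which binds the stem-loop of histone mRNA, by -0.71, -0.73 and -0.40. Chaf1a, the large subunit of CAF-1, fell in all 5 comparisons, by -0.61 in NB9464 TCM.

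The G1/S regulators did not move together. Normalized counts of E2f1 were 3577 and 3720 in NS, 3224 and 3308 with R788, 4144 and 4717 in NB9464 TCM, 3930 and 3812 in NB9464 TCM + R788, 4504 and 4793 in NBT3L TCM, and 4442 and 4415 in NBT3L TCM + R788. Against 4210 and 4292 normalized counts in NS, E2f2 had 2299 and 2517 in NB9464 TCM, 2102 and 1996 in NBT3L TCM and 4484 and 4646 with R788, and in the combined groups 1756 and 1816 in NB9464 TCM + R788 and 1809 and 1793 in NBT3L TCM + R788. E2f1 and E2f2, both activating E2F factors, parted in TCM, with all 4 TCM libraries above NS for E2f1 and all 4 below it for E2f2. E2f1 rose by 0.28 ± 0.08 (adjusted p = 0.00231) in NB9464 TCM and by 0.35 ± 0.08 (adjusted p = 8.6e-05) in NBT3L TCM. Both rises were lost with total count scaling (0.15, adjusted p = 0.124, and 0.12, adjusted p = 0.237), and the rise in NB9464 TCM also without NB9464 TCM replicate 4 (adjusted p = 0.141) or NS replicate 1 (adjusted p = 0.0569). E2f2 changed by -0.82 ± 0.08 (adjusted p = 1.36e-21) and -1.05 ± 0.08 (adjusted p = 2.63e-34) in the TCMs and by 0.10 ± 0.08 (adjusted p = 0.39) with R788 alone, where it was the 1 gene above NS in both libraries. Ccne1 had 1861 and 2047 normalized counts in NS, 1651 and 1581 in NB9464 TCM, 1572 and 1617 in NBT3L TCM, 1051 and 1054 with R788, 1138 and 1234 in NB9464 TCM + R788, and 1429 and 1289 in NBT3L TCM + R788. For Ccne2, the NS libraries held 1953 and 1920 normalized counts, NB9464 TCM 1070 and 1027, NBT3L TCM 1218 and 1081, R788 916 and 1091, NB9464 TCM + R788 566 and 635, and NBT3L TCM + R788 692 and 695. The E cyclins, which drive Cdk2 at S-phase entry, both fell with R788, and Ccne1 stayed nearer to NS in TCM than Ccne2. Ccne1 changed by -0.27 ± 0.11 (adjusted p = 0.0405) and -0.29 ± 0.11 (adjusted p = 0.0259) in the TCMs, calls that were lost without any 1 of the 4 libraries for NB9464 TCM and without NS replicate 2 or either NBT3L TCM library for NBT3L TCM, and by -0.89 ± 0.11 (adjusted p = 4.4e-14) with R788. Ccne2 changed by -0.89 ± 0.13 (adjusted p = 3.77e-10) in NB9464 TCM, -0.95 ± 0.13 (adjusted p = 2.98e-11) with R788 and -0.73 ± 0.14 (adjusted p = 3.76e-06) with R788 in NBT3L TCM, the largest fall there.

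Replication-linked repair genes fell furthest in TCM, with role medians of -1.48 and -1.72. Normalized counts of Fanci were 1087 and 1039 in NS, 564 and 747 with R788, 403 and 360.4 in NB9464 TCM, 202 and 142 in NB9464 TCM + R788, 277 and 253 in NBT3L TCM, and 379 and 267 in NBT3L TCM + R788. Against 1913 and 1816 normalized counts in NS, Fancd2 had 635 and 591 in NB9464 TCM, 639 and 497 in NBT3L TCM and 1086 and 1064 with R788, and in the combined groups 393 and 518 in NB9464 TCM + R788 and 588 and 551 in NBT3L TCM + R788. Brca1 had 2837 and 2785 normalized counts in NS, 1299 and 1251 in NB9464 TCM, 1584 and 1468 in NBT3L TCM, 1593 and 1688 with R788, 963 and 1147 in NB9464 TCM + R788, and 1270 and 1122 in NBT3L TCM + R788. The Fanconi anemia pair Fanci and Fancd2, which act together at stalled forks, were the lowest of the 48 in NBT3L TCM relative to NS. Fanci changed by -1.48 ± 0.23 (adjusted p = 1.29e-09) in NB9464 TCM and by -2.003 ± 0.23 (adjusted p = 1.87e-16) in NBT3L TCM, and Fancd2 by -1.60 ± 0.17 (adjusted p = 4.97e-21) and -1.72 ± 0.17 (adjusted p = 1.47e-23). With R788 alone the changes were -0.70 for Fanci, -0.79 for Fancd2 and -0.78 for Brca1, of which that of Fanci was lost without NS replicate 1 or 2 or R788 replicate 7. The exons of Fanci are overlapped by Polg over 921 bases on the opposite strand, and how reads there were assigned is not known.

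**Figure D3:**
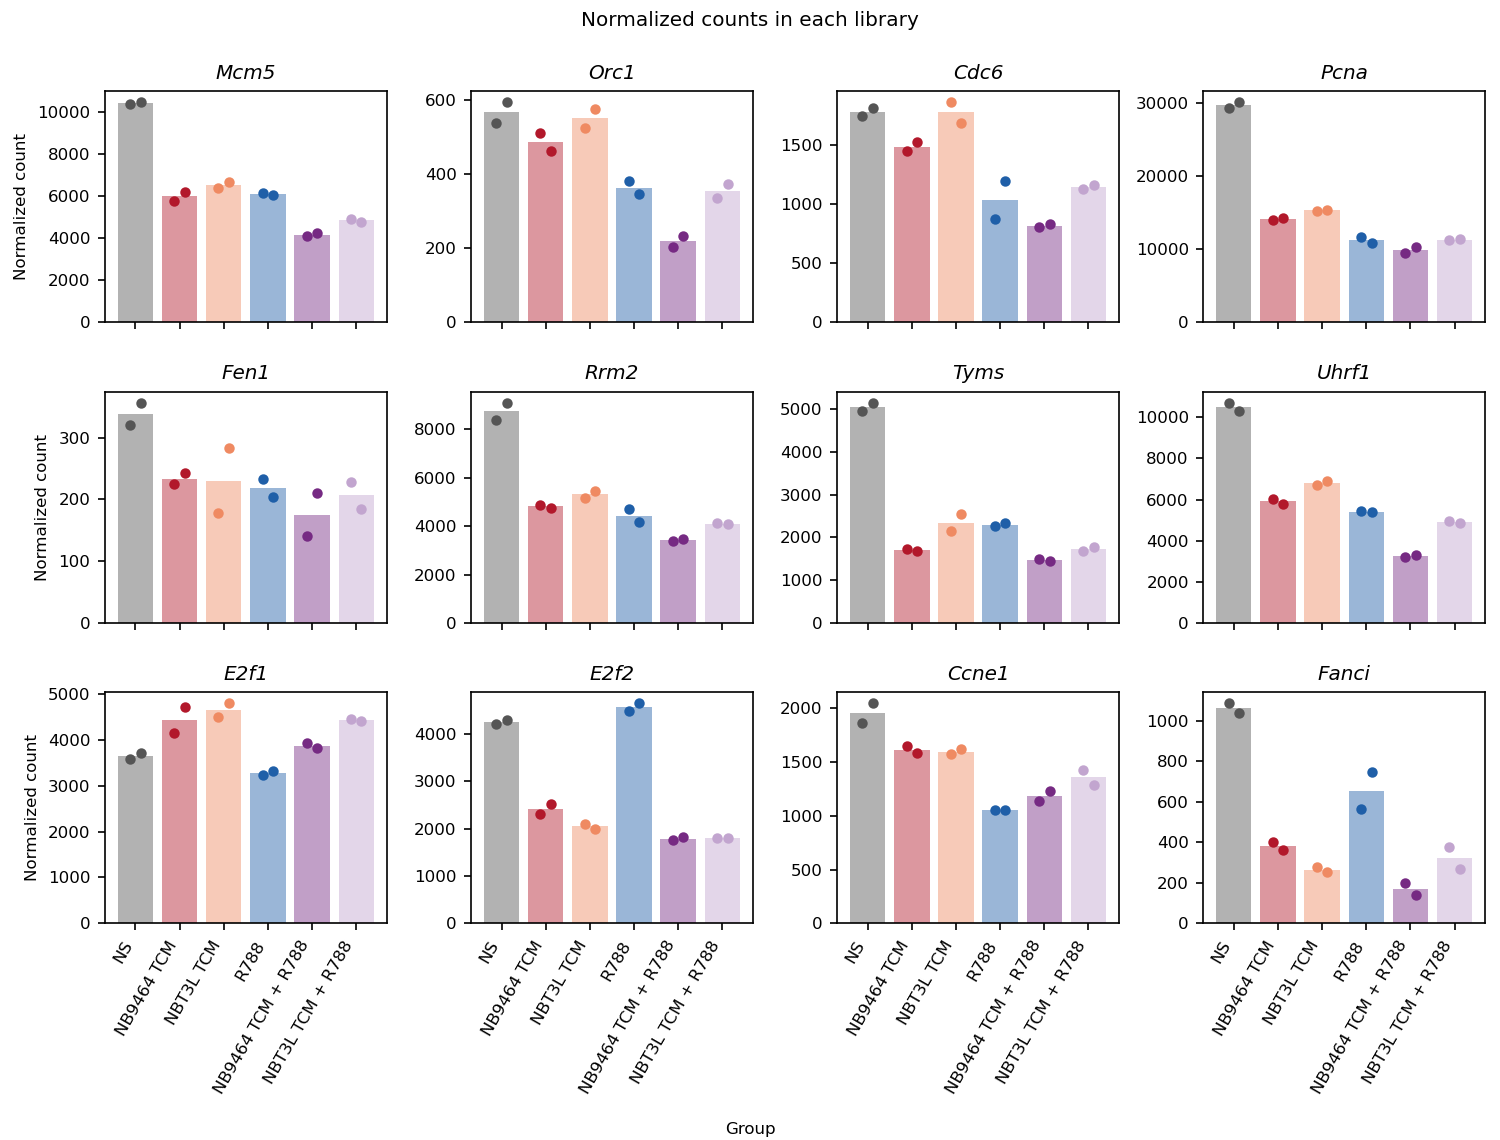
Normalized counts of 12 genes in each library (points) with the group mean (bars, from 0). E2f1 is above NS in all 4 groups with TCM, E2f2 is as high with R788 as in NS, Orc1 and Cdc6 are close to NS in NBT3L TCM, and Pcna is lower with R788 alone than in either TCM alone.

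The design also allows a test of whether R788 acted differently in TCM, as the difference between its effect in a TCM and its effect without TCM. In NB9464 TCM this difference was positive, that is, a smaller fall, for 15 genes and negative for 1 (12.5% of all genes called, 6.22% positive and 6.26% negative). In NBT3L TCM it was positive for 20 and negative for 0 (10.1% called, 5.17% positive and 4.96% negative), with 1 negative at an unadjusted p under 0.05 in DESeq2 and in edgeR. The difference was positive in both for 11 genes, namely Ccne1, Gins2, Gins4, Mcm5, Pcna, Rfc5, Rpa1, Rrm1, Rrm2, Tk1 and Tyms, an overlap not counted over all genes. With edgeR, 10 were positive and 1 negative in NB9464 TCM and 18 positive in NBT3L TCM. With total count scaling, 7 were positive and 1 negative in NB9464 TCM and 19 positive and 1 negative in NBT3L TCM. Since both differences use the same NS and R788 libraries, the pair are not independent. Leaving out each library in turn, 7 of the 16 calls in NB9464 TCM held throughout (Gins3, Tyms, Pcna, Rfc5, Rpa1, Rrm2 and E2f2) and 13 of the 20 in NBT3L TCM, those of Fanci, Fancd2, Gins4, Mcm4, Mcm5, Mcm7 and Orc6 being lost without at least 1 library. By estimate alone, the fall was larger without TCM than in NB9464 TCM for 39 of 48 genes and than in NBT3L TCM for 47. The difference was below 0 for 9 and 1 of the 48 genes, against 8063 and 7837 of all 16281 genes tested. The number of calls in NB9464 TCM was 9 without NS replicate 2, NB9464 TCM replicate 4 or NB9464 TCM + R788 replicate 9, 10 without NS replicate 1 or NB9464 TCM + R788 replicate 10, and 8 without NB9464 TCM replicate 3.

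Pcna had a difference of 0.88 ± 0.08 (adjusted p = 9e-26) in NB9464 TCM and by 0.96 ± 0.08 (adjusted p = 7.21e-31) in NBT3L TCM. Tyms differed by 0.92 ± 0.14 (adjusted p = 2.61e-09) and 0.69 ± 0.14 (adjusted p = 2.13e-05), and Gins2 by 0.55 ± 0.16 (adjusted p = 0.00814) and 0.94 ± 0.16 (adjusted p = 4.27e-07). Gins3 had the largest difference in NB9464 TCM, 1.16 ± 0.30 (adjusted p = 0.00148), and Fanci in NBT3L TCM, 0.98 ± 0.33 (adjusted p = 0.0272). All 5 nucleotide supply genes had a positive difference in NB9464 TCM (with edgeR not Dut and Tk1), as did 4 of 5 in NBT3L TCM. Licensing genes counted 1 of 10 in NB9464 TCM (Mcm5, at 0.25, a call lost with edgeR) and 6 of 10 in NBT3L TCM. E2f2 was the 1 negative call, at -0.53 ± 0.12 (adjusted p = 0.000141) in NB9464 TCM, where R788 gave a fall (-0.43 ± 0.09, adjusted p = 1.02e-05).

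**Figure D4:**
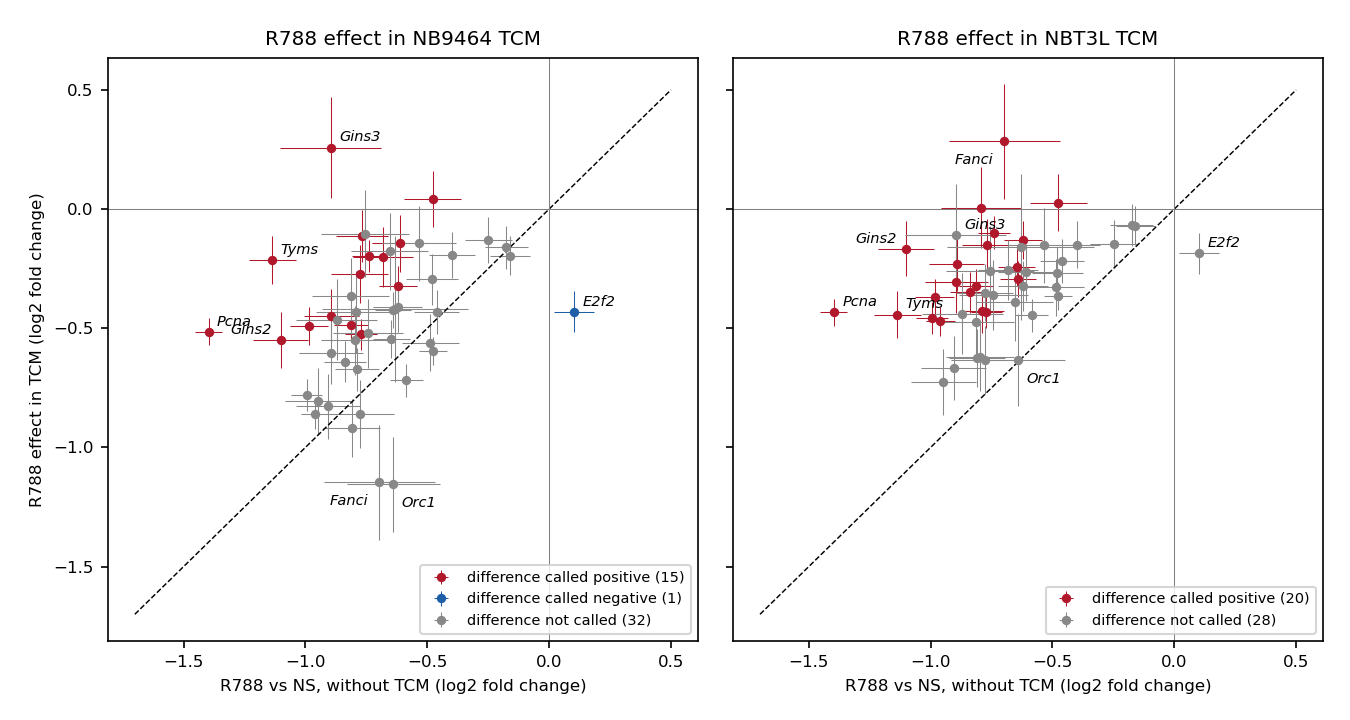
Effect of R788 on each of the 48 genes without TCM (horizontal axis) against its effect in NB9464 TCM (left) or NBT3L TCM (right), as log2 fold changes with SE bars from DESeq2; the dashed line marks equal effects. Most points lie above the line, 15 and 20 of them with a difference called positive (red), and E2f2 (blue) lies below it.

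Between the TCMs, few replication genes passed the test. In NB9464 TCM against NBT3L TCM, 4 were lower and 1 was higher (9.4% of all genes called, 5.72% lower and 3.69% higher), with a median of -0.09. With total count scaling the median was 0.02, against 0.10 for all genes. Both NB9464 TCM libraries lay below both NBT3L TCM libraries for 24 of 48 genes (25.9% of all genes) and above them for 7 (23.4%). Tyms differed by -0.45 ± 0.10 (adjusted p = 0.000125), Gins2 by -0.35 ± 0.12 (adjusted p = 0.0256), Cdt1 by -0.22 ± 0.07 (adjusted p = 0.0148) and Uhrf1 by -0.20 ± 0.06 (adjusted p = 0.00962), and E2f2 by 0.23 ± 0.09 (adjusted p = 0.0498). EdgeR called 1 of these genes (Tyms), and leaving out any library of the comparison left 1 call or 0 (0 without NBT3L TCM replicate 6). At an unadjusted p under 0.05, DESeq2 found 8 lower and 2 higher, and edgeR 6 and 2, without a share of all genes to set beside them.

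The effect of R788 differed between the TCMs for 2 genes, both with a larger fall in NB9464 TCM (0.706% of all genes called). Fanci differed by -1.43 ± 0.34 (adjusted p = 0.0078), from -1.15 in NB9464 TCM to 0.28 in NBT3L TCM, and Uhrf1 by -0.39 ± 0.09 (adjusted p = 0.00314), from -0.86 to -0.47. With edgeR 0 genes were called, with 11 at an unadjusted p under 0.05, all lower, again without a share of all genes. Without NB9464 TCM replicate 3 or NBT3L TCM + R788 replicate 11 no call was left, and 1 was left without NB9464 TCM replicate 4, either NB9464 TCM + R788 library or either NBT3L TCM library. These contrasts share no libraries between the TCMs, and the fall was larger in NB9464 TCM for 35 of 48 genes by estimate. Of all 16281 genes tested, 8276 had a lower estimate in NB9464 TCM than in NBT3L TCM.

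Other genes of the same processes moved in the same direction in most cases. Of 39 other replication genes, 27 fell and 2 rose in each TCM, and R788 lowered 26 of them without TCM, 21 when in NB9464 TCM and 14 when in NBT3L TCM. Their medians were -0.62 in NB9464 TCM, -0.61 in NBT3L TCM and -0.47 with R788. The difference of R788 in NB9464 TCM from no TCM was positive for 2 of the 39 and negative for 0, with a median of -0.025. Of all genes, 6.22% were positive and 6.26% negative. In NBT3L TCM the difference was positive for 4 and negative for 0 (5.17% and 4.96% of all genes), with a median of 0.17. Clspn, a checkpoint adaptor, changed by -1.22 in NB9464 TCM and -0.69 with R788, Gmnn, which blocks relicensing, by -1.10 and -0.41, Dbf4, the activator of the Cdc7 kinase, by -1.11 and -0.25, and the polymerase and clamp loader subunits Pole2 and Rfc1 by -0.60 and -0.51 in NB9464 TCM. The largest falls were of Ticrr in NB9464 TCM (-1.30 ± 0.23, adjusted p = 9.45e-08) and Chtf18 in NBT3L TCM (-1.39 ± 0.17, adjusted p = 1.13e-15). The rises were led by Pold4, a small subunit of polymerase delta, in NB9464 TCM (0.82 ± 0.14, adjusted p = 1.86e-08). Pold4 also rose with R788 alone (0.34 ± 0.14, adjusted p = 0.0453) and with R788 in NB9464 TCM (0.42 ± 0.14, adjusted p = 0.0159).

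Nucleotide genes outside the 48 were mixed. Of 17, 8 fell in each TCM and 2 and 1 rose, and R788 lowered 10 and raised 2 without TCM. For Dck, the NS libraries held 14558 and 14695 normalized counts, NB9464 TCM 6259 and 6269, NBT3L TCM 7303 and 7324, R788 5697 and 5857, NB9464 TCM + R788 3041 and 3137, and NBT3L TCM + R788 4030 and 3759. Dck, which salvages deoxycytidine, was lowest with both agents together. It changed by -1.22 ± 0.06 (adjusted p = 2.14e-90) in NB9464 TCM and by -1.0 ± 0.06 (adjusted p = 1.63e-60) in NBT3L TCM, and with R788 by a further -1.02 ± 0.06 (adjusted p = 1.41e-57) and -0.91 ± 0.06 (adjusted p = 1.25e-46) there. Samhd1, which breaks down deoxynucleotides, changed by -0.39 in NB9464 TCM and -0.47 with R788, and Rrm2b, the ribonucleotide reductase subunit used outside S phase, by 0.09 ± 0.17 (adjusted p = 0.771) and 0.05 ± 0.17 (adjusted p = 0.878). Nme1 rose in both TCMs (0.42 and 0.71).

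Among 30 further G1/S regulators, 17 fell and 5 rose in each TCM, Mycn among the 5, and R788 lowered 15 and raised 2 without TCM. Normalized counts of Ccnd1 were 17954 and 15484 in NS, 8274 and 8204 with R788, 4020 and 3909 in NB9464 TCM, 1165 and 1482 in NB9464 TCM + R788, 4394 and 4530 in NBT3L TCM, and 1924 and 1851 in NBT3L TCM + R788. Against 2217 and 2315 normalized counts in NS, Myc had 2773 and 2785 in NB9464 TCM, 2452 and 2356 in NBT3L TCM and 1053 and 1038 with R788, and in the combined groups 1885 and 1930 in NB9464 TCM + R788 and 1388 and 1629 in NBT3L TCM + R788. Ccnd1, the D cyclin that opens G1, fell under either agent, while Myc rose in NB9464 TCM and fell with R788. Ccnd1 changed by -2.08 ± 0.10 (adjusted p = 3.56e-104) in NB9464 TCM, -1.02 ± 0.09 (adjusted p = 1.29e-25) with R788 alone and -1.58 ± 0.10 (adjusted p = 2.3e-55) with R788 in NB9464 TCM, and Myc by 0.29 ± 0.10 (adjusted p = 0.0116) in the first of these, by -1.12 ± 0.10 (adjusted p = 8.09e-26) in the second and by -0.54 ± 0.10 (adjusted p = 1.73e-06) in the third. Among the Cdk inhibitors, Cdkn2c changed by -2.08 ± 0.09 (adjusted p = 1.02e-118) in NB9464 TCM and by -0.31 ± 0.09 (adjusted p = 0.00201) with R788, Cdkn1b by -0.43 ± 0.10 (adjusted p = 3.45e-05) and 0.25 ± 0.09 (adjusted p = 0.0302), and Cdkn1a by -0.34 ± 0.07 (adjusted p = 6.47e-06) and -0.40 ± 0.07 (adjusted p = 1.31e-07). Csf1r rose with R788 in each medium, by 0.49 ± 0.04 (adjusted p = 1.2e-35) without TCM, 0.25 ± 0.04 (adjusted p = 2.15e-09) in NB9464 TCM and by 0.18 ± 0.04 (adjusted p = 7.47e-05) in NBT3L TCM. The repressors E2f7 and E2f8 changed by -1.84 and -1.33 in NB9464 TCM and by -0.78 and -0.73 with R788. Cdk2 changed by -0.52 and -0.31, Ccna2 by -2.26 and -0.71, and Ccnd2 by -0.63 ± 0.29 (adjusted p = 0.0806) and -0.58 ± 0.29 (adjusted p = 0.13). Mouse Mycn was at 0 in all 4 libraries without TCM, at 6.7 and 23.2 in NB9464 TCM, 22.9 and 41.1 in NB9464 TCM + R788, 9.9 and 13.0 in NBT3L TCM and 0.0 and 0.0 in NBT3L TCM + R788. The source of these few counts, and whether they relate to the amplified MYCN of NB9464, was not tested.

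Repair genes outside the 48 followed them, with 19 of 25 lower in NB9464 TCM, 18 in NBT3L TCM and 17 with R788 alone, and medians of -0.82, -0.80 and -0.60. Bard1, the partner of Brca1, had the largest fall in NB9464 TCM (-1.67 ± 0.22, adjusted p = 5.47e-13).

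Mitosis genes fell in both TCMs and, in most cases, with R788 alone. All 22 fell in each TCM, with medians of -1.91 and -1.96 against -0.84 and -0.72 for the 48 replication genes. With R788 alone 19 fell, with a median of -0.58 against -0.75, and R788 lowered 14 in NB9464 TCM (median -0.30) and 5 in NBT3L TCM (median -0.14). Mki67 had 22477 and 21047 normalized counts in NS, 6279 and 5925 in NB9464 TCM, 6250 and 6526 in NBT3L TCM, 16728 and 20861 with R788, 5293 and 5767 in NB9464 TCM + R788, and 6312 and 6832 in NBT3L TCM + R788. For Top2a, the NS libraries held 22670 and 21284 normalized counts, NB9464 TCM 6215 and 5565, NBT3L TCM 5739 and 5969, R788 14408 and 17113, NB9464 TCM + R788 4263 and 3774, and NBT3L TCM + R788 4942 and 5076. Normalized counts of Cdk1 were 8449 and 8840 in NS, 5079 and 4512 with R788, 2873 and 2840 in NB9464 TCM, 1993 and 2096 in NB9464 TCM + R788, 3163 and 3752 in NBT3L TCM, and 2777 and 2763 in NBT3L TCM + R788. Mki67 and Top2a, markers of cycling cells, were far lower in all TCM libraries than in NS or R788. The mitotic kinase Cdk1 was far lower in all TCM libraries than in NS. Against R788 alone (5079 and 4512) its gap was smaller, with 3163 and 3752 in NBT3L TCM. Mki67 changed by -1.83 ± 0.09 (adjusted p = 1.07e-91) in NB9464 TCM and by -0.21 ± 0.09 (adjusted p = 0.0566) with R788, Top2a by -1.90 ± 0.09 (adjusted p = 7.26e-105) and -0.48 ± 0.09 (adjusted p = 3.01e-07), and Cdk1 by -1.60 ± 0.09 (adjusted p = 2.06e-66) and -0.85 ± 0.09 (adjusted p = 3.03e-19). Cenpf, a kinetochore protein, had the largest fall in both TCMs (-2.71 and -2.77), and Mybl2 with R788 alone (-0.95). The difference of R788 in NB9464 TCM from no TCM was positive for 6 of 22 mitosis genes and 0 of 25 repair genes, and negative for 0. Outside the 48, it was positive for 8 of 17 nucleotide genes and 2 of 30 G1/S regulators, and negative for 1 and 2. Of all genes, 6.22% were positive and 6.26% negative. In NBT3L TCM 11, 2, 8 and 4 were positive in the same order, and 0, 0, 1 and 1 negative (5.17% and 4.96% of all genes). Whether the lists differ in their response was not tested.

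**Figure D5:**
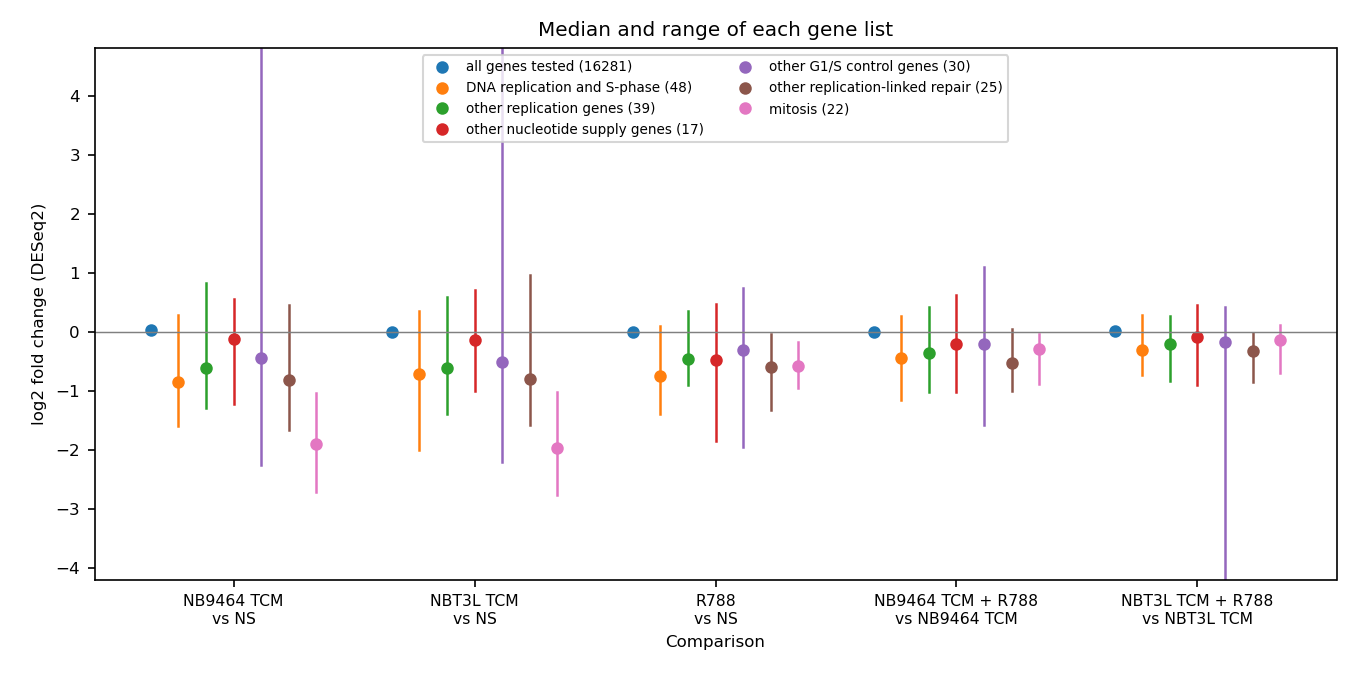
Median (point) and lowest to highest value (line) of the log2 fold changes of each gene list in 5 comparisons, with the number of genes tested in brackets; for all genes only the median is drawn, and the lines of the G1/S genes that run to Mycn end at the edge of the plot. Medians of the mitosis genes are near -2 in both TCMs, below the 48 replication genes, while with R788 alone both lie between -1 and 0.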

How the data were processed

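Poly(A) RNA of BMDMs was sequenced in 12 libraries, 2 in each of 6 groups. Per the labels and methods, the authors mapped reads to mm10 with STAR and quantified genes with Salmon. Their processing notes name STAR 2.6.1d, Salmon 1.4.0, SAMtools 1.9, Picard 2.26 and MultiQC 1.11. The deposited table holds whole read counts per gene with no normalization, and a gene length. The sequencer and read layout differ between the labels and the methods, and the strand setting is not given in the sources used here. Exons of 17 of the 48 genes overlap a gene on the opposite strand, and those of Mcm7 and Rpa1 overlap another gene on the same strand, so some reads of such genes may be shared. By GENCODE M21 exons, the longest overlaps on the opposite strand were those of Chaf1a (4648 bases), Gins2 (2758) and Fen1 (2039). For Chaf1a the deposited gene length was 3308 bases against 8854 by these exons. How much of its overlap lies in the exons that were counted is therefore not known. Between 65.2% and 67.9% of counts from 1 to 40 were even, so halved counts were tried as an alternative.

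From the counts, genes reaching 10 counts in 2 or more libraries were fitted in DESeq2 1.42.0 (R 4.3.3), with 1 mean per group, median-of-ratios size factors, Wald tests and unshrunken fold changes. P-values were adjusted by Benjamini-Hochberg over all genes of a comparison at 0.05. Genes that DESeq2 left without an adjusted p were counted as not called, and none of the 48 was among them. Differences between effects of R788 were tested as contrasts of the same fit. Alternatives were edgeR 4.0.16 (quasi-likelihood), TMM and total count scaling, no filter on counts, a stricter filter (mean of 50), halved counts, a minimum change of 2-fold, fits on only the libraries compared, and leaving out each library. Symbols came from GENCODE M21, and figures were drawn with Python 3.11.15. The total counts of 44977847 to 56449685 per library set the counting error, which is largest for the genes with the lowest counts, and the spread between 2 libraries was estimated with information from all genes.

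Some items are not reported here. Genes with all 12 values printed were named by role together with the largest changes called in each comparison. The members, the other gene lists and the tests were chosen with earlier results of these data known, so no count over a list is independent evidence of its direction.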

Additional observations from a re-analysis of the deposited data

Results flagged for a closer look

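The effect of R788 differed between media in the tests of the difference itself (DESeq2), and the genes named in the report for which it did are given here by the log2 effect of R788 in TCM minus the effect without TCM.

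In NB9464 TCM, 16 of the 48 genes differed. The positive differences among them were 1.16 for Gins3, 0.92 for Tyms, 0.88 for Pcna, 0.65 for Rfc5, 0.55 for Gins2, 0.54 for Rpa1, 0.52 for Gins4, 0.50 for Brca1, 0.49 for Rrm2, 0.48 for Prim2, 0.47 for Dut, 0.45 for Ccne1, 0.33 for Rrm1, 0.30 for Tk1 and 0.25 for Mcm5, and E2f2 was negative at -0.53. Outside the 48, the difference was 0.57 for Myc, 0.42 for Samhd1, 0.37 for Cdk1, 0.36 for Rfc1, 0.27 for Cdkn1a, -0.24 for Csf1r and -0.56 for Ccnd1.

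In NBT3L TCM, 20 of the 48 differed. The values were 0.98 for Fanci, 0.96 for Pcna, 0.94 for Gins2, 0.80 for Fancd2, 0.69 for Tyms, 0.66 for Ccne1, 0.64 for Rpa1, 0.62 for Rfc5, 0.61 for Rrm2, 0.59 for Orc6, 0.54 for Mcm6, 0.50 for Gins4, 0.49 each for Tk1, Rrm1, Uhrf1 and Mcm2, 0.40 for Lig1, 0.36 for Mcm4, 0.35 for Mcm7 and 0.34 for Mcm5. Outside the 48, the difference was 0.68 for E2f8, 0.53 for Cdk1, 0.44 for Myc, 0.39 for Cdkn2c, 0.38 for Samhd1, 0.32 for Ccna2 and -0.31 for Csf1r.

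Between the TCMs, 2 of the 48 differed in their response to R788, Uhrf1 by -0.39 and Fanci by -1.43 (NB9464 TCM minus NBT3L TCM).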

How the results depend on the processing

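No value of a single gene changed its direction past the threshold under any alternative. With 2 libraries a group and no statement on their origin, a call rests on the spread between libraries alone. Whether libraries of different groups were paired is not given, so no paired analysis was run. The fit on only the libraries compared was not run for the average over media.

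With a minimum change of 2-fold, the number of the 48 genes called was 15 in NB9464 TCM, 12 in NBT3L TCM, 3 with R788 alone, 2 with R788 in NB9464 TCM and 0 in NBT3L TCM, 0 for the average over media, 0 between the TCMs, 1 and 0 for the difference of R788 in NB9464 TCM and in NBT3L TCM from no TCM, and 1 for its difference between the TCMs. The counts without that minimum and with no library left out, in the same order, were 44, 44, 44, 31, 23, 45, 5, 16, 20 and 2. Between the TCMs, 5 calls became 1 with edgeR, 3 with only the libraries compared and 2 with total count scaling. The difference of R788 in NB9464 TCM from no TCM went from 16 to 8 calls with total count scaling, and its difference between the TCMs from 2 to 1 with halved counts, where Fanci got no adjusted p, and to 0 with edgeR. Fanci also got none with TMM scaling or with only the libraries compared, where the 2 calls were Mcm6 and Uhrf1 in place of Fanci and Uhrf1, and none without NB9464 TCM replicate 3 or 4 or NBT3L TCM replicate 6. Total count scaling moved the median of all genes to -0.102 in NB9464 TCM and -0.231 in NBT3L TCM against NS, and the median of the 48 to -0.973 and -0.956, with 0 higher and 44 and 45 lower. The causes were not tested.

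Leaving out each library in turn gave 42 to 43 calls in NB9464 TCM, 41 to 44 in NBT3L TCM, 40 to 44 with R788 alone, 27 to 28 with R788 in NB9464 TCM, 15 to 18 with it in NBT3L TCM, 43 to 45 for the average over media and 0 to 1 between the TCMs. For the differences of the R788 effect it gave 8 to 15 in NB9464 TCM, 15 to 20 in NBT3L TCM and 0 to 3 between the TCMs.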
